A study of Homo sapiens with 6 samples.

Results

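Of 9 abundant or well-studied regulatory long noncoding RNAs, 5 fell in STAT5B knockout HEK293 cells, 2 did not pass the test and 2 were at or near a count of 0. Over all 15958 genes tested, 11.4% fell and 12.1% rose. The number of these RNAs that fell was 3 with DESeq2, another test, and 2 when wild-type replicate 2 was left out. The 9 genes were MALAT1, NEAT1, NORAD, KCNQ1OT1, TUG1, OIP5-AS1, H19, MEG3 and PVT1. They were picked by symbol from 60609 gene identifiers, and each was found once in every library. KCNQ1OT1 fell by 37.0%, NEAT1 fell by 33.7% and MALAT1 fell by 29.4%, with wide spread between the wild-type libraries. TUG1 fell by 13.2% and NORAD fell by 7.98%, with narrow spread.

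Long noncoding RNAs are transcribed and usually spliced or processed like mRNAs but are not translated into a known protein. MALAT1 and NEAT1 stay in the nucleus, MALAT1 in the splicing factor stores called nuclear speckles and NEAT1 as the scaffold of the bodies called paraspeckles. NORAD works in the cytoplasm, where it binds the Pumilio proteins, which repress mRNAs. KCNQ1OT1, H19 and MEG3 come from imprinted domains, where genes are expressed from 1 parental allele.

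HEK293 is a human embryonic kidney line. The libraries compared were 3 from wild-type cells and 3 from cells with a STAT5B knockout made by CRISPR/Cas9, all grown in DMEM with 10% fetal bovine serum. STAT5B is a transcription factor of cytokine and growth hormone signalling, and per the labels the knockout clones were picked by sequencing and protein blot for mutation of both alleles. Some sample names use the word Sham and the protocol speaks of GS knockout clones. Neither is explained, and no file used here shows the mutation.

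The labels do not say whether the 3 libraries of a group were separate cultures or clones, and the p-values reflect just the spread among these 6 libraries, some or all of which may be technical. Loss of STAT5B and other differences between picked clones and the wild-type cells cannot be told apart. In bulk RNA, fewer cells with a transcript and less of it per cell cannot be told apart either. The libraries held 17494958 to 21099813 estimated counts, and all 10 HEK293 markers examined were detected in them. These markers summed to 1534 to 1578 CPM in wild-type libraries and to 1351 to 1384 in knockout libraries. Of the 10, 3 rose and 2 fell in the knockout, where 23.4% of all tested genes were called. The part of these markers in the results was not tested. Markers of blood, endothelium, fibroblasts and hepatocytes summed to 7.73 to 10.3 CPM in the wild type and 8.45 to 10.4 CPM in the knockout, with 4 of 14 at 0 in all libraries. STAT5B itself was at 70.1, 64.6 and 69.4 counts per 1000000 (CPM) in wild-type libraries, against 63.1, 61.8 and 60.5 CPM in knockout libraries. It was called as lower in the knockout (log2 fold change −0.14, edgeR adjusted p = 0.0468). That does not check the genotype, since a small mutation need not lower the RNA.

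Sequence elements that define the best-known members are shown first, from the longest transcript model of each gene in GENCODE release 29, with positions counted from 1 at its 5′ end. NORAD is known for repeated Pumilio elements, and these 5 stretches are shown because they hold 3 close pairs, the first single element and the last one. Capitals mark TGTANATA, searched on the transcript strand, and bases are written as DNA.
NORAD 753 to 785: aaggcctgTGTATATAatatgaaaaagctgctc
NORAD 1434 to 1466: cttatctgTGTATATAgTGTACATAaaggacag
NORAD 2631 to 2663: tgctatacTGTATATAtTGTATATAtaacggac
NORAD 3267 to 3299: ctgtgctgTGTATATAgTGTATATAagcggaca
NORAD 4591 to 4623: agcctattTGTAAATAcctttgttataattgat

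The NORAD model of 5339 bases held 15 such elements, or 2.81 per kb. In the 3 pairs the starts of neighbouring elements lay 9 bases apart. Among 27903 genes with a model of at least 1000 bases, the longest models held 0.116 elements per kb, 25.5% held any, and 7 (0.0251%) were as dense as NORAD or denser. The other 8 members held fewer, with 9 in KCNQ1OT1 over 91667 bases, 6 in NEAT1 over 22743 bases, 2 in TUG1, 1 each in OIP5-AS1 and MEG3, and none in MALAT1, H19 and PVT1. A match is a description of letters and not a measured binding site.

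**Figure D1:**
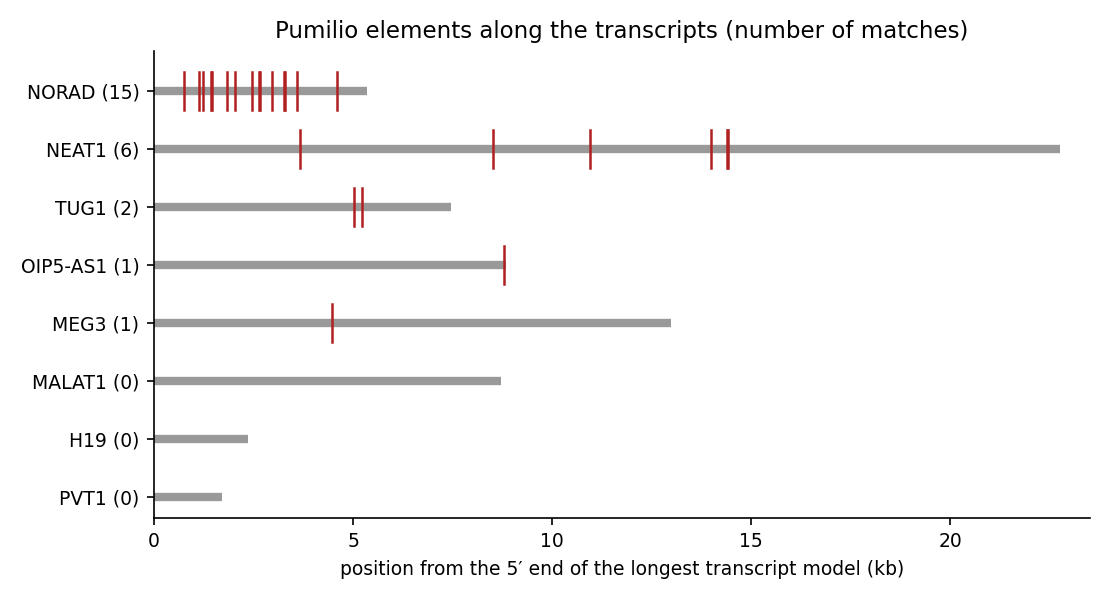
Each grey bar is the longest transcript model of a gene, drawn to scale from its 5′ end in kb, and each red line is a TGTANATA element, with the number of elements in brackets. KCNQ1OT1, with 9 elements in 91667 bases, is left out for scale. The 15 NORAD elements lie between positions 761 and 4606, where NEAT1 holds 1 element in the same stretch.

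MALAT1 and NEAT1 are known for a 3′ end that is cut by RNase P, which releases a small tRNA-like RNA, and that folds 2 U-rich tracts and an A-rich tract into a triple helix in place of a poly(A) tail. The stretches below are shown because this end bears on how an mRNA library captures these RNAs. Capitals mark the tracts as they stand in NEAT1, TTTCTTTT and TTTTGCTTTT with any T before them and AAAAAGCAAAA with any A before it.
MALAT1 8256 to 8355: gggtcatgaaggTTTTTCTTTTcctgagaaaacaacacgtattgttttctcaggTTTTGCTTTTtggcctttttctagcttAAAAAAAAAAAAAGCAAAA
NEAT1 22644 to 22743: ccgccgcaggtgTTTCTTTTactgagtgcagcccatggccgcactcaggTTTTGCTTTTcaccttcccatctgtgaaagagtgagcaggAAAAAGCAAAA

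The 3 tracts in this order, each at most 80 bases from the one before, were found in 2 of the 27903 longest models, those of NEAT1, from which the letters were taken, and of MALAT1. The A-rich tract alone was in 304 models (1.09%). The NEAT1 model ends with it, at base 22743, and the MALAT1 model runs on to base 8708. NEAT1 also has a short model class, the longest of which has 3524 bases and which is known to end in a poly(A) tail. The longest run of A was 13 bases in MALAT1, where it is part of the tract shown, and it was 22 in NEAT1, 10 in NORAD, 18 in TUG1 and 29 in both KCNQ1OT1 and OIP5-AS1.

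The comparison asked whether each RNA differed between knockout and wild type. It used edgeR's quasi-likelihood test across 15958 genes, with Benjamini-Hochberg adjustment over all of them and a threshold of 0.05. Of the 7 members that had enough counts to be tested, 5 fell and none rose. Over all tested genes 23.4% were called, 11.4% lower and 12.1% higher in the knockout. None of the 7 was higher at an unadjusted p under 0.05 by edgeR, DESeq2 or limma-voom. With effective-length offsets, which scale each library by its own gene lengths, edgeR gave 1 member above 0 at that level, OIP5-AS1 (adjusted p = 0.159). The median log2 fold change, knockout minus wild type throughout, was −0.20 for the 7 members and 0.0063 for all tested genes. Over all genes 51.4% of calls were rises, and 30.1% on log2(TPM + 1), where TPM is transcripts per 1000000, a level per length. Together the 9 members took 0.119% to 0.136% of the counts of a wild-type library and 0.103% to 0.112% of a knockout library.

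**Figure D2:**
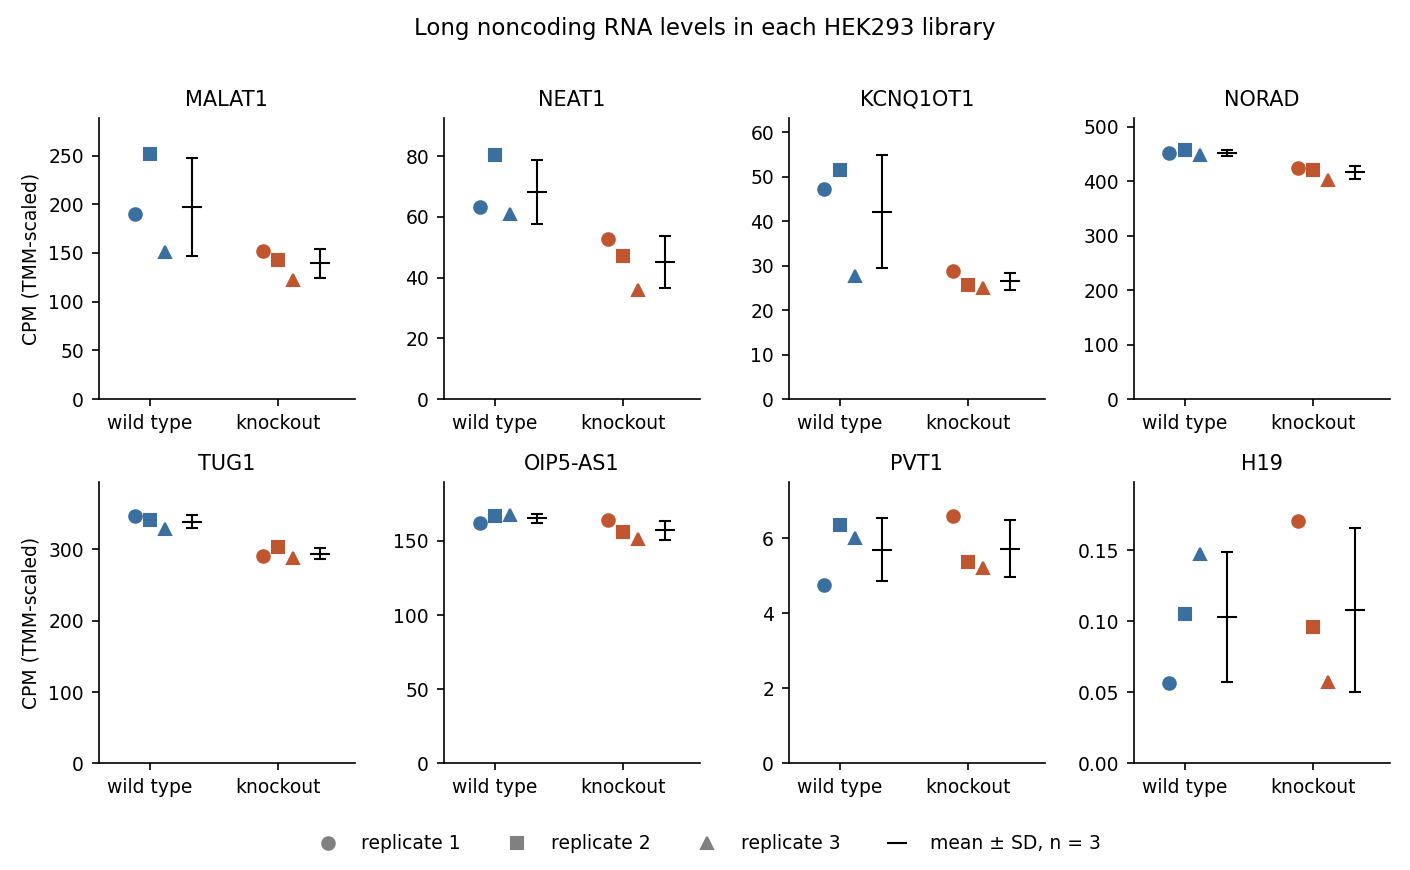
Level of 8 long noncoding RNAs in each of the 6 libraries, in CPM on TMM-scaled library sizes, with every axis starting at 0. Points are libraries and the black bar is the mean ± SD of 3. MALAT1 and KCNQ1OT1 overlap between the groups, NEAT1, NORAD and TUG1 do not, and MEG3 is not drawn because it had a count of 0 in all 6 libraries.

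Between genes, levels were compared in TPM. In the wild type NORAD was highest at 149 ± 1.86 TPM (SD, n = 3), followed by TUG1 at 94.9 ± 6.22, MALAT1 at 90.9 ± 8.28, OIP5-AS1 at 64.7 ± 0.594 and NEAT1 at 34 ± 4.47 TPM. PVT1 at 6.80 ± 1.28, KCNQ1OT1 at 0.773 ± 0.235 and H19 at 0.225 ± 0.153 TPM came last before MEG3. TUG1 and MALAT1 overlapped in the wild type, and MALAT1 and OIP5-AS1 overlapped in the knockout, where MALAT1 had the mean of 70.3 ± 3.60 and OIP5-AS1 that of 66.2 ± 2.82 TPM. Other neighbours in this order were separate in both groups except KCNQ1OT1 and H19 in the knockout. NORAD ranked between 1090 and 1329 of all genes by TPM over the 6 libraries, and KCNQ1OT1 between 15697 and 17576.

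MALAT1 (ENSG00000251562, plus strand of chromosome 11, 65497688 to 65506516, hg38) was at 190, 251 and 151 CPM in wild-type libraries, against 152, 143 and 123 in knockout libraries. Wild-type replicate 2 was the highest, and wild-type replicate 3 lay just under knockout replicate 1, so the groups overlapped. Group means were 198 ± 50.5 and 139 ± 15.1 CPM (SD, n = 3 each). MALAT1 fell by 0.50 on the log2 scale (SE 0.13, 95% interval −0.78 to −0.22, edgeR adjusted p = 0.0126). The call ended without wild-type replicate 2, where the change was −0.29 (edgeR adjusted p = 0.0525), and in DESeq2 (adjusted p = 0.108). Per length the groups did not overlap, at 88.2, 100 and 84.3 TPM against 72.1, 66.2 and 72.7 TPM.

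NEAT1 lies next to MALAT1 on the same strand (ENSG00000245532, chromosome 11, 65422774 to 65445540). In the wild type it was at 63.3, 80.3 and 60.9 CPM, against 52.7, 47.1 and 35.8 CPM in the knockout. All 3 knockout libraries lay below all 3 wild-type libraries, and wild-type replicate 2 was again the highest. Group means were 68.2 ± 10.6 and 45.2 ± 8.60 CPM (SD, n = 3 each), and NEAT1 fell by 0.59 on the log2 scale (SE 0.12, 95% interval −0.84 to −0.34, edgeR adjusted p = 0.00236). The fall was called in all 15 alternative settings, with changes from −0.85 to −0.46. Per length NEAT1 was at 34 ± 4.47 TPM in the wild type and 18.7 ± 0.628 TPM in the knockout, a ratio of 0.550, against a ratio of 0.663 in the counts.

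The third large fall was in KCNQ1OT1, an antisense RNA that is transcribed from the paternal allele inside KCNQ1 and silences neighbouring genes on that allele (ENSG00000269821, minus strand of chromosome 11, 2608328 to 2699994). In the wild type it was at 47.2, 51.7 and 27.7 CPM, against 28.7, 25.7 and 25 CPM in the knockout. Wild-type replicates 1 and 2 were high, while replicate 3 was at the level of the knockout. Group means were 42.2 ± 12.7 and 26.5 ± 1.98 CPM (SD, n = 3 each), and KCNQ1OT1 fell by 0.67 on the log2 scale (SE 0.16, 95% interval −1.02 to −0.32, edgeR adjusted p = 0.00916).

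The KCNQ1OT1 call ended in 5 of 15 alternatives, more than for the other 4 fallen members. These were DESeq2 (adjusted p = 0.0665), edgeR with effective-length offsets (0.0524), limma on log2(TPM + 1) (0.220) and on log2(TPM + 0.1) (0.219), and edgeR without wild-type replicate 2 (0.0597). Without wild-type replicate 3 the fall in edgeR was 0.90 on the log2 scale. KCNQ1, a potassium channel gene on the opposite strand, had 130 counts over the wild type and 135 over the knockout, against 2385 and 1479 for KCNQ1OT1. The sources used here do not give whether the counting used strand, and without strand reads from the pair cannot be told apart.

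TUG1, a nuclear and cytoplasmic RNA first described as upregulated by taurine, had values close together in each group (ENSG00000253352, plus strand of chromosome 22, 30969245 to 30979395). In the wild type it was at 347, 341 and 329 CPM, against 291, 304 and 288 CPM in the knockout, without overlap. Group means were 339 ± 9.53 and 294 ± 8.22 CPM (SD, n = 3 each), and TUG1 fell by 0.20 on the log2 scale (SE 0.034, 95% interval −0.28 to −0.13, edgeR adjusted p = 6.33e-04). Like NEAT1, it was called in all 15 alternatives, with −0.32 in limma on log2(TPM + 1).

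NORAD (ENSG00000260032, minus strand of chromosome 20, 36045622 to 36050960) was at 451, 458 and 448 CPM in wild-type libraries, against 425, 422 and 402 in knockout libraries. The groups did not overlap, and the wild-type libraries lay within 10 CPM of each other. Group means were 453 ± 5.07 and 416 ± 12.3 CPM (SD, n = 3 each), and NORAD fell by 0.12 on the log2 scale (SE 0.032, 95% interval −0.19 to −0.051, edgeR adjusted p = 0.0146). In TPM the fall was larger, at 149 ± 1.86 TPM against 129 ± 2.64 TPM, and limma on log2(TPM + 1) gave −0.21. The deposited length of NORAD itself was 5401 bases in every library. TPM also depends on the counts and lengths of all other genes, and their part in this difference was not tested. On log2(TPM + 1) the median change of all tested genes was −0.059, against 0.0063 in edgeR. Without wild-type replicate 2 the change was −0.11 and the call ended (edgeR adjusted p = 0.0677).

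Thus 3 of the 7 tested members, NEAT1, TUG1 and NORAD, were lower without overlap in CPM, as were 18.7% of all tested genes, and 38.6% did not overlap in either direction. In TPM it was 5 of the 7, with MALAT1 and KCNQ1OT1, against 23.7% of all tested genes. Whether the falls of KCNQ1OT1, NEAT1 and MALAT1 differ in size from those of TUG1 and NORAD was not tested.

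OIP5-AS1, known as cyrano, which binds the microRNA miR-7, did not pass the test (ENSG00000247556, plus strand of chromosome 15, 41283990 to 41309737). Its level was 162, 167 and 167 CPM in wild-type libraries, against 164, 156 and 152 in knockout libraries, and the groups overlapped. The log2 fold change was −0.072 (SE 0.037, edgeR adjusted p = 0.183), and its 95% interval allows folds from 0.901 to 1.005. With effective-length offsets the sign turned, to 0.10 (edgeR adjusted p = 0.159). OIP5 on the opposite strand, which encodes a centromere protein, had 1150 and 1094 counts, and reads of the pair cannot be told apart without strand.

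PVT1, the neighbour of MYC on chromosome 8 (ENSG00000249859, plus strand, 127794533 to 128101253), was at 4.74, 6.35 and 6.00 CPM in wild-type libraries, against 6.59, 5.38 and 5.20 in knockout libraries. The highest and the lowest value were both from replicate 1, of the knockout and of the wild type. The log2 fold change was 0.00087 (SE 0.15, edgeR adjusted p = 0.998), with a 95% interval from −0.33 to 0.33, which allows folds from 0.796 to 1.26. MYC itself had a change of 0.029 and did not pass the test (edgeR adjusted p = 0.554).

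H19 and MEG3, both made from the maternal allele, could not be tested. H19 (ENSG00000130600, minus strand of chromosome 11, 1995176 to 2001470) had 1, 2 and 3 counts in wild-type libraries, against 3, 2 and 1 in knockout libraries. MEG3 (ENSG00000214548, plus strand of chromosome 14, 100779410 to 100861031) had a count of 0 in all 6 libraries, where 3 counts, the limit that a count of 0 allows, correspond to 0.142 to 0.171 CPM. Such limits cover counting error only.

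**Figure D3:**
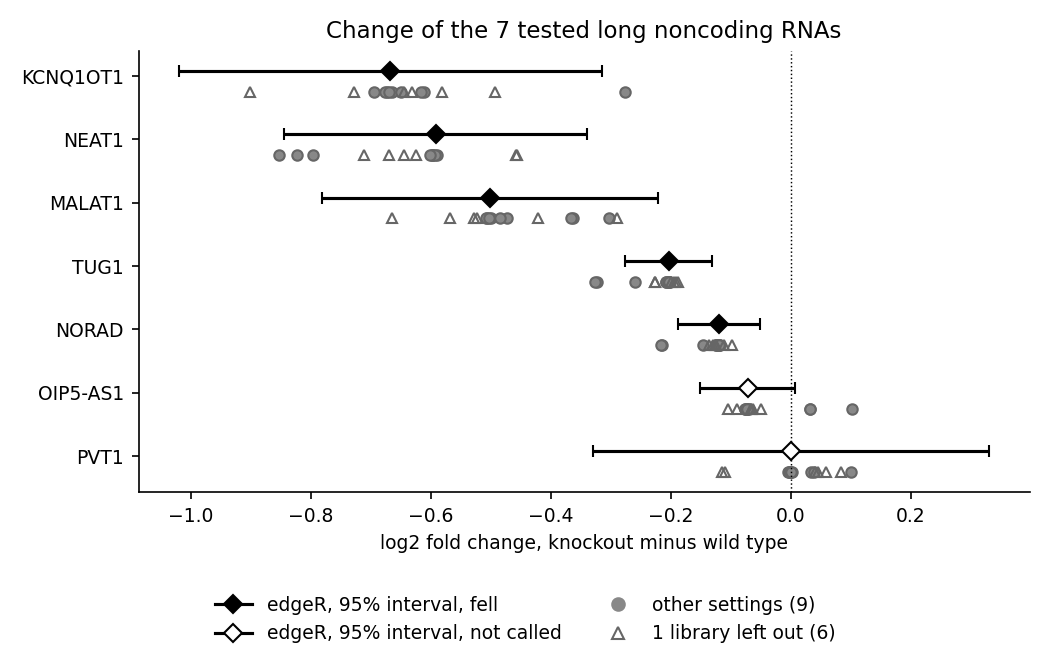
Log2 fold change, knockout minus wild type, of the 7 tested long noncoding RNAs. Diamonds with bars are edgeR values with 95% intervals, filled where the RNA fell, and below them circles are 9 other settings and triangles the 6 fits that leave out 1 library. NEAT1 stays between −0.85 and −0.46 in all of them, while OIP5-AS1 and PVT1 have values on both sides of 0.

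The deposited gene length differs between libraries, as an average over a gene's transcript models by their estimated abundance would. The count divided by effective length and TPM was the same within 0.1% for at least 99.99% of genes of 10 TPM or more. That cannot show how the length was formed, since it holds wherever TPM is computed from the count and the effective length. The length was read as a description of which models the reads were assigned to, and this reading was not tested. Of the 5 tested members whose length varied, OIP5-AS1 was the 1 whose groups did not overlap, as was the case for 12.8% of 13158 genes with a varying length.

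OIP5-AS1 was shorter in the knockout. Its length was 4361, 4535 and 4505 bases in the wild type and 3935, 3965 and 3823 bases in the knockout, with no overlap. Group means were 4467 ± 93.0 and 3908 ± 74.8 bases (SD, n = 3 each), with p = 0.1 in a two-sided exact permutation test, the smallest p that 3 against 3 samples allow. Among 13158 genes, 8.15% were shorter and 4.64% longer without overlap.

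GENCODE release 29 holds 10 OIP5-AS1 models under the same versioned identifier, the longest of 8829 bases and the others of 473 to 1482 bases. With these models, a mean length as measured needs 39.2% to 48.6% of the molecules to be the long model over the wild-type libraries and 31.9% to 41.8% over the knockout libraries. These are bounds over all mixtures of the shorter models, and the annotation the submitters used is not known. It differs from release 29 for NORAD, which has 1 model of 5339 bases there and a deposited length of 5401 bases. The bounds take the deposited length as an average weighted by abundance. They hold only if the OIP5-AS1 models were those of release 29. A protein-coding gene on the same strand, ENSG00000285920, overlaps OIP5-AS1 and had 6.32, 0.00 and 10.4 counts in wild-type libraries, against 6.26, 69.7 and 27.2 in knockout libraries. Its part in the length of OIP5-AS1 was not tested.

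MALAT1 and NEAT1 lengths overlapped between the groups. MALAT1 had 3815, 4364 and 3178 bases in wild-type libraries, against 3505, 3502 and 2890 in knockout libraries (two-sided exact permutation p = 0.4). NEAT1 had 3371, 3534 and 3424 bases in wild-type libraries, against 4463, 4122 and 3093 in knockout libraries (two-sided exact permutation p = 0.4). Knockout replicates 1 and 2 were thus above, and replicate 3 below, all wild-type NEAT1 values. TUG1 lay between 5693 and 6056 bases in all 6 libraries.

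**Figure D4:**
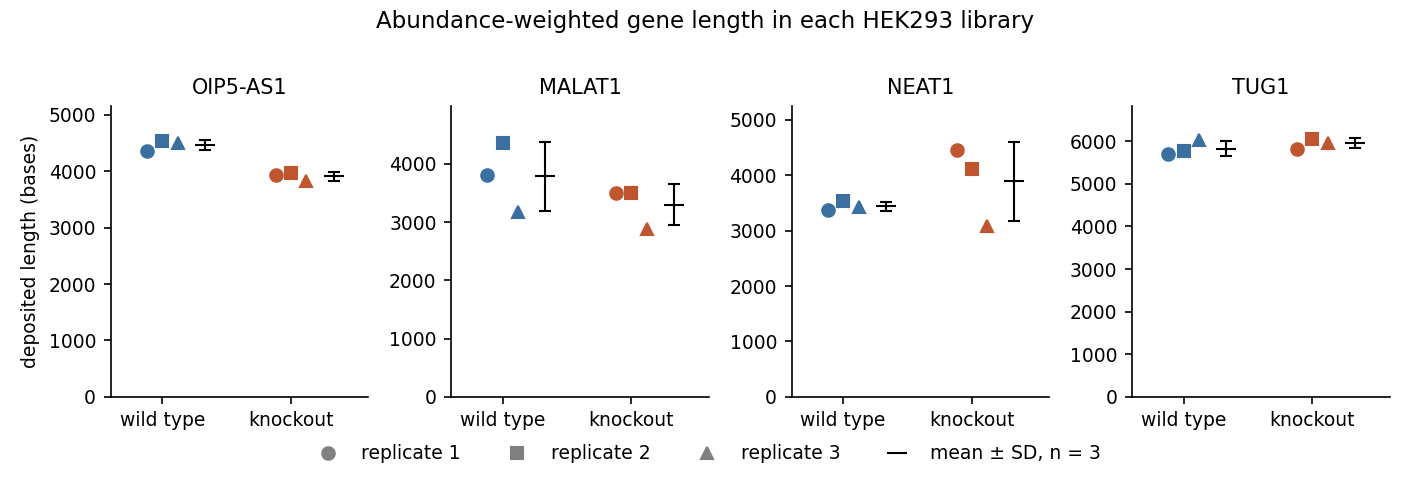
Deposited length in bases, read as an average over transcript models weighted by their abundance, for 4 genes in each library, with axes starting at 0. Points are libraries and black bars the mean ± SD of 3. OIP5-AS1 separates the groups, at 4361 to 4535 bases against 3823 to 3965, and the knockout libraries are far apart for NEAT1, at 3093 to 4463 bases.

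Gene length went with direction across all tested genes. With the tested genes in 4 classes of equal size by deposited length, in the shortest, 153 to 1486 bases, 15.3% rose and 3.01% fell. In the longest class, from 3701 bases, 7.82% rose and 25.5% fell, with a median log2 fold change of −0.071. NORAD, TUG1, KCNQ1OT1 and OIP5-AS1 are in that longest class, MALAT1 and NEAT1 are in the next, where 11.2% rose and 10.3% fell, and PVT1 is in the shortest. The part of length in the members' falls was not tested, and with effective-length offsets, which correct only for differences of length between libraries, 4 of the 5 falls were still called and KCNQ1OT1 was not.

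**Figure D5:**
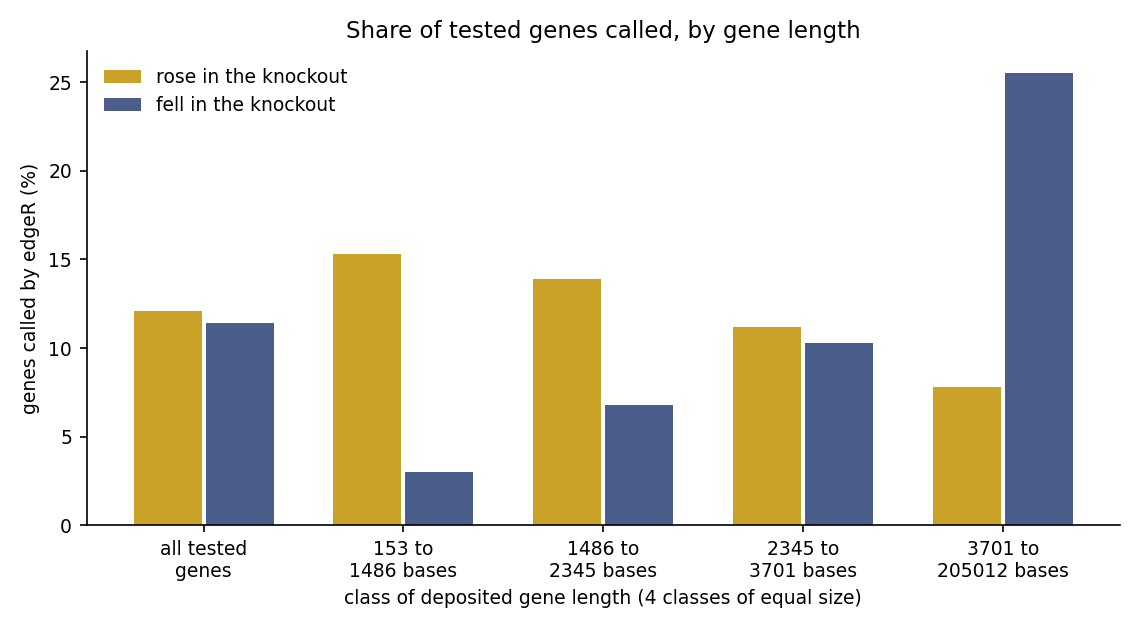
Percentage of tested genes that rose or fell in the knockout by edgeR, for all 15958 tested genes and in 4 classes of equal size by deposited gene length in bases. The share that fell goes from 3.01% in the shortest class to 25.5% in the longest, which holds NORAD, TUG1, KCNQ1OT1 and OIP5-AS1.

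Noncoding genes other than the members were counted for comparison, a class chosen after values were seen. Of 1627 tested, 6.52% fell and 2.52% rose, with a median log2 fold change of −0.058. Of the 353 with a mean of at least 5 CPM, 67 (19%) fell, 24 (6.80%) rose, and the median was −0.073. Among 13102 protein-coding genes at any level 12.6% fell and 13.8% rose.

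Among RNAs that normally lack a poly(A) tail, 2 of the 6 tested were called, where 23.4% of all tested genes were. RN7SL1, an RNA of the signal recognition particle, was at 7.0, 4.4 and 7.43 CPM in wild-type libraries, against 140, 93.3 and 22.5 in knockout libraries, and rose (edgeR adjusted p = 1.46e-04). RN7SL2 rose likewise (edgeR adjusted p = 1.24e-04), though reads of the 2 near-identical copies are uncertain. RN7SK, a nuclear RNA that holds back transcription elongation, had 142, 220 and 0.01 counts in wild-type libraries, against 27.6, 73.0 and 39.0 in knockout libraries, and did not pass the test (edgeR adjusted p = 0.197). As for KCNQ1OT1, MALAT1 and NEAT1, the highest RN7SK value was in wild-type replicate 2, and replicate 3 was the lowest of the wild type. RN7SL1 had the reverse order, with replicate 2 the lowest and replicate 3 the highest of the wild type. Of the 16 such RNAs listed, 6 were tested, and 4 of them, RN7SK included, did not pass. The part of RNA capture in the members' changes was not tested.

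Lists of partner genes are read against the whole table, where 11.4% of tested genes fell and 12.1% rose. Of 20 paraspeckle proteins, which assemble on NEAT1, 5 rose, 3 fell and 12 were not called, with a median log2 fold change of −0.016. SFPQ, one of the core proteins, rose by 0.13 (SE 0.032, edgeR adjusted p = 0.0102) and MATR3 by 0.17 (edgeR adjusted p = 0.00421). TAF15, an RNA-binding protein, fell by 0.29 on the log2 scale (standard error 0.049; edgeR adjusted p = 7.86e-04). NUDT21 and UBAP2L rose and SMARCA4 and CPSF6 fell, as called by the same test, and NONO, another core protein, did not pass (edgeR adjusted p = 0.511). With effective-length offsets 4 of the 20 were called.

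Of 12 nuclear speckle genes, whose proteins share that body with MALAT1, 4 fell and none rose, where 11.4% of all tested genes fell. SON was at 826, 834 and 806 CPM in wild-type libraries, against 699, 697 and 707 in knockout libraries, without overlap, and fell by 0.23 on the log2 scale (standard error 0.030; edgeR adjusted p = 1.07e-04). SRRM2, which with SON forms the core of the speckle, fell by 0.27 (edgeR adjusted p = 1.80e-04), and SRRM1 and PNN fell as well. The median of the 12 was −0.046, and 2 were called with effective-length offsets.

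Among 12 genes that cut or protect the MALAT1 and NEAT1 3′ ends, 1 rose, RPP25 of RNase P (0.17, edgeR adjusted p = 0.0390), and none fell. That call ended in DESeq2 and with effective-length offsets. METTL16, a methyltransferase that binds the MALAT1 triple helix, did not pass (edgeR adjusted p = 0.204). Of 12 genes of the nuclear exosome and its adaptors, which degrade nuclear RNA, EXOSC2 and ZFC3H1 fell and none rose, where 11.4% of all tested genes fell, and 1 was called with effective-length offsets.

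Among the proteins listed as NORAD binders, PUM2 fell by 0.15 on the log2 scale (standard error 0.034; edgeR adjusted p = 0.00579) and RBMX, an RNA-binding protein of the splicing machinery, rose by 0.17 (SE 0.032, edgeR adjusted p = 0.00174). KHDRBS1 did not pass (edgeR adjusted p = 0.453). Of 7 listed Pumilio target mRNAs, 1 rose, 2 fell and 4 were not called, with a median log2 fold change of 0.0061. PCNA, the DNA polymerase clamp, rose by 0.31 (SE 0.032, edgeR adjusted p = 1.78e-05). MAPK14, a stress-activated kinase, was 1 of the 2 that fell (edgeR adjusted p = 0.0479). In DESeq2, and also with effective-length offsets, 1 of the 7 rose and 1 fell.

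Among the genes listed as imprinted neighbours of H19 and KCNQ1OT1, 1 was called. Of 14 listed neighbours 10 were tested, and CARS1, a cysteinyl-tRNA synthetase, rose by 0.15 (SE 0.047, edgeR adjusted p = 0.0347). This call too ended in DESeq2 and with effective-length offsets. CDKN1C, a cell cycle inhibitor silenced by KCNQ1OT1 on the paternal allele, had 2.31 ± 0.69 CPM in wild-type libraries, against 2.19 ± 0.45 in knockout libraries (SD, n = 3 each). Its log2 fold change was −0.073 (SE 0.27, edgeR adjusted p = 0.880), and an SE of this size leaves room for a change in either direction. IGF2, the growth factor gene beside H19, was at 4.51 ± 0.50 and 4.44 ± 0.44 CPM (edgeR adjusted p = 0.953), and 3 genes had a count of 0 in every library. In the MEG3 domain 2 of 8 listed genes were tested, neither passed and 3 were at 0. Of 7 genes that maintain imprints 5 were tested and 3 fell, DNMT1, the maintenance DNA methyltransferase, by 0.20 (edgeR adjusted p = 4.89e-04), its partner UHRF1 and the zinc finger gene ZNF445. With effective-length offsets 1 of the 5 was called, and 11.4% of all tested genes fell.

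Of 13 genes of the PRC2 complex and the G9a methyltransferases, which noncoding RNAs such as KCNQ1OT1 are reported to recruit, RBBP4, RBBP7 and MTF2 rose and SUZ12 fell by 0.19 (edgeR adjusted p = 0.00190), and 2 were called with effective-length offsets. Among partners of single members, IGF2BP1, an RNA-binding protein, fell by 0.30 on the log2 scale (standard error 0.032; edgeR adjusted p = 2.63e-05). Of 32 other well-studied long noncoding RNAs 24 were tested, 2 rose and 4 fell (6 called of 24, where 23.4% of all tested genes were), with a median of −0.021. With effective-length offsets 4 rose and 2 fell. ZFAS1, a small nucleolar RNA host gene, rose from 16.9 ± 0.36 to 23.7 ± 2.53 CPM (SD, n = 3 each, edgeR adjusted p = 8.56e-04), and FIRRE, a nuclear RNA of the X chromosome, rose as well. FTX fell by 0.52 on the log2 scale (standard error 0.11; edgeR adjusted p = 0.00255), and DANCR, JPX and MIR17HG fell.

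Calls among neighbouring genes are given beside the 23.4% of all tested genes that were called. Within 1 Mb of MALAT1, 3 of 70 other tested genes rose and 10 fell, with a median log2 fold change of −0.039, and the NEAT1 window shares most of these genes. PCNX3, with the smallest p, fell by 0.32 in log2 terms (edgeR adjusted p = 1.50e-04), while DRAP1 and BANF1 rose by 0.27 and 0.20. Around NORAD 1 of 29 genes rose and 6 fell, among them CEP250, a centrosome gene (−0.36, edgeR adjusted p = 2.02e-04). Around TUG1 1 of 30 rose and 2 fell, PRR14L (−0.26) and SMTN (−0.46), and around KCNQ1OT1 3 of 16 rose and 1 fell.

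The genes most like each fallen member were named by the root mean square difference of log2 CPM, centred on the gene's mean over the 6 libraries, among 11512 genes with a mean of at least 5 CPM. For MALAT1 the closest were the noncoding LINC00632 (0.081) and LINC00342 (0.12), followed by ANKRD18A (0.13). For NEAT1 they were SHISA2 (0.11), D2HGDH (0.11) and LINC00632 (0.12), and for KCNQ1OT1 SLC16A4-AS1 (0.13), BMS1P2 (0.14) and LINC00632 (0.15). For NORAD they were ADNP, C6orf62 and THOC2 (0.013 to 0.014), and for TUG1 RBM28 (0.0072), TNPO2 and SEPTIN10. The values describe 6 libraries that share their scaling.

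STAT proteins bind the palindrome TTCNNNGAA. In RefSeq promoter windows (GRCh38.p14, 250 bases before to 50 after a start) it was in 2689 of 35116 windows, or 7.66%. Of the 9 windows that matched members, 2 for MALAT1, 3 for MEG3 and 1 each for H19, OIP5-AS1, NORAD and TUG1, none held it. This says only that these letters are not in these windows, and NEAT1, KCNQ1OT1 and PVT1 had no window.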

How the data were processed

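The authors deposited 1 table per library, with length, effective length, TPM and estimated count per gene, per the file headers. Between 7.12% and 7.64% of the deposited estimated counts were not whole, and they were rounded. The deposited TPM summed to 1000000 per library and served for levels between genes and for 2 alternatives. Per the submitters' processing notes, FastQC, fastp, DRAGEN, Picard and build hg38 were used, without versions or roles. The sources used here do not give the annotation release or strand setting. GENCODE release 29 gave positions for 58502 identifiers, and the members' symbols all matched.

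Groups came from the genotype label. EdgeR 4.0.16 in R 4.3.3 (filterByExpr with minimum count 10 and minimum total 15, TMM, quasi-likelihood F test, 15958 genes) compared them. CPM use TMM-scaled library sizes. The biological coefficient of variation was 4.43%, and replicates differed by more than counting noise. Alternatives were DESeq2 1.42.0, RLE scaling, limma-voom (limma 3.58.1), other filters, effective-length offsets, log2(TPM + 1) and log2(TPM + 0.1), a replicate block and each library left out. The fit was tested on simulated data.

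Members, lists and tests were chosen with earlier results of these data known. Named from each list were at most 5 called genes with the smallest p, and 3 neighbours and 3 most alike genes per fallen member. SFPQ, CPSF6, NONO, METTL16, KHDRBS1, CDKN1C, IGF2, KCNQ1, OIP5, MYC, RN7SK and ENSG00000285920 were named after their values were seen. A gene taken by the likeness rule and some genes of the lists are not reported here. Where a symbol had 2 identifiers, as for MATR3, that with more reads was used.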

Additional observations from a re-analysis of the deposited data

How the results depend on the processing

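Over 15 alternatives NEAT1 and TUG1 were called as lower in each, NORAD in 14, MALAT1 in 13 and KCNQ1OT1 in 10. The number of members called was 5 in edgeR, 3 in DESeq2, and 2 to 5 when 1 library was left out, with 2 (NEAT1 and TUG1) without wild-type replicate 2. No member was called as higher in any. Where a call ended, the cause was not tested. OIP5-AS1 was −0.072 in the fit as reported and turned to 0.10 with effective-length offsets, 0.032 on log2(TPM + 1) and 0.033 on log2(TPM + 0.1). PVT1, at 0.00087, turned to −0.0046 with RLE scaling, −0.0016 in DESeq2, −0.0026 in limma-voom and −0.00075 with 1 CPM required in 3 libraries. It ranged from −0.11 to 0.083 when 1 library was left out. With no low-count filter edgeR gave MALAT1 an adjusted p of 1.75e-33, at nearly the same change.

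Over all genes 3742 were called, 1734 when effective-length offsets were used, 1623 with log2(TPM + 1), 1622 with log2(TPM + 0.1), and 2618 to 3575 when 1 library was left out. The share of rises among calls was 51.4%, 30.1% on log2(TPM + 1) and 29.8% on log2(TPM + 0.1). With effective-length offsets the calls were fewer in 8 of the 15 gene lists by more than 1.5 times. All 35 alternative length comparisons kept their direction.

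Whether the replicate numbers pair the libraries could not be settled, since the correlations were small and mixed. Deviations of same-numbered libraries correlated at −0.057, 0.18 and 0.040 over 11725 genes, and not every library correlated best with its own number. With the replicate block 3660 genes and 5 members were called. The edgeR adjusted p was then lower for MALAT1 (4.49e-04), NEAT1 (1.8e-04) and KCNQ1OT1 (0.0011). It was higher for NORAD (0.0171) and TUG1 (8.09e-04). Depth limits H19, with 1 to 3 counts per library, and MEG3, with 0, and no change could be tested for either.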
